A study of Zea mays with 4 samples.

Results

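Cytokinin oxidases, also called cytokinin dehydrogenases, were followed in maize (Zea mays) roots 1 h after nitrate was supplied to one side of a divided root system. The probes were chosen by description: a maize probe was taken if its putative annotation named cytokinin oxidase or cytokinin dehydrogenase and if it had 1 spot on 1 version of the array. This gave 12 probes of 55547 maize probes in all, with 6 of the 28830 on version A and 6 of the 27097 that version B holds. The arrays were spotted oligonucleotide arrays with 2 colours. Each of the 4 arrays compared nitrate-treated roots (Cy3) with control roots (Cy5), with 2 replicate arrays for each version.

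Nitrate-treated roots were the side that received 1 mM nitrate for 1 h, and control roots were the side kept in solution free of nitrogen, where 1 mM calcium chloride made up for the calcium. All plants had first grown for 6 days in 0.5 mM nitrate and for 2 days without nitrogen, and the labels give their age at sampling as day 10. Segments of 15 cm from the root tip were taken. The control is therefore the other side of a divided root system, connected through the shoot, and not the root of a plant without nitrate. No genotype is named in the labels.

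Cytokinins are plant hormones derived from adenine that act on cell division, root branching and nitrogen signalling. Cytokinin oxidases are flavin enzymes that cut off the isoprenoid side chain of the hormone and so inactivate it irreversibly. The gene family was first cloned from maize, and its transcripts are known to rise after cytokinin treatment in several plants. In Arabidopsis, nitrate induces the hormone's synthesis in roots through an isopentenyltransferase gene, and oxidases limit how much hormone accumulates.

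Intensity of the maize probes had a median of 1572.5 to 1939 in the nitrate channel and 1438 to 1960 in the control channel of the 4 arrays. The 95th percentile of buffer and blank spots was at most 242 in the nitrate channel and at most 120 in the control channel. On the arrays of version A alone it was at most 38 and at most 32.25. All 12 oxidase probes exceeded the level of the same array and channel, in both channels of both arrays. All 12 could be tested, and none carried the flags B or S of the deposited files, read here as bad and saturated. Their intensities lay between 114 and 10510. Of the marker lists, 28 of 28 root probes, 136 of 144 leaf and photosynthesis probes and 216 of 319 seed probes passed the filter for testing. The root markers were thus detected, and the lists of other tissues were not absent. That filter also passed 28374 of the 28830 maize probes on version A and 24748 of the 27097 on version B, so passing it does not identify a tissue. No probe of the 3 marker lists was called, and their median log2 ratios were 0.28, 0.03 and 0.04. Their part in the oxidase values was not tested. In bulk tissue, fewer cells of a type and less RNA per cell cannot be told apart. Precision is limited by there being 2 arrays for each probe.

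The highest ratio among the oxidases belonged to a probe of a maize enzyme with a name and number of its own, and it did not pass the test. This probe for cytokinin oxidase 2 (MZ00031342) had a mean log2 ratio of nitrate over control of 1.35, that is 2.55-fold. The other 11 probes had mean log2 ratios from -0.52 to 0.44. No oxidase probe passed the limma test at an adjusted p of 0.05, neither of the 6 of version A, where 0% of all tested probes passed, nor of the 6 of version B, where 0.0444% did. At an unadjusted limma p of 0.05, 1 of the 12 passed, against 12.5% of all tested probes. The ratio was above 0 on both arrays for 6 of 12 probes, against 30.1% of all probes, and below 0 on both arrays for 3 of 12, against 30.4%. The median log2 ratio of the 12 was 0.16, with 0.32 on version A and 0.04 on version B, where the median of all tested probes was 0.0038 and -0.0037.

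**Figure D1:**
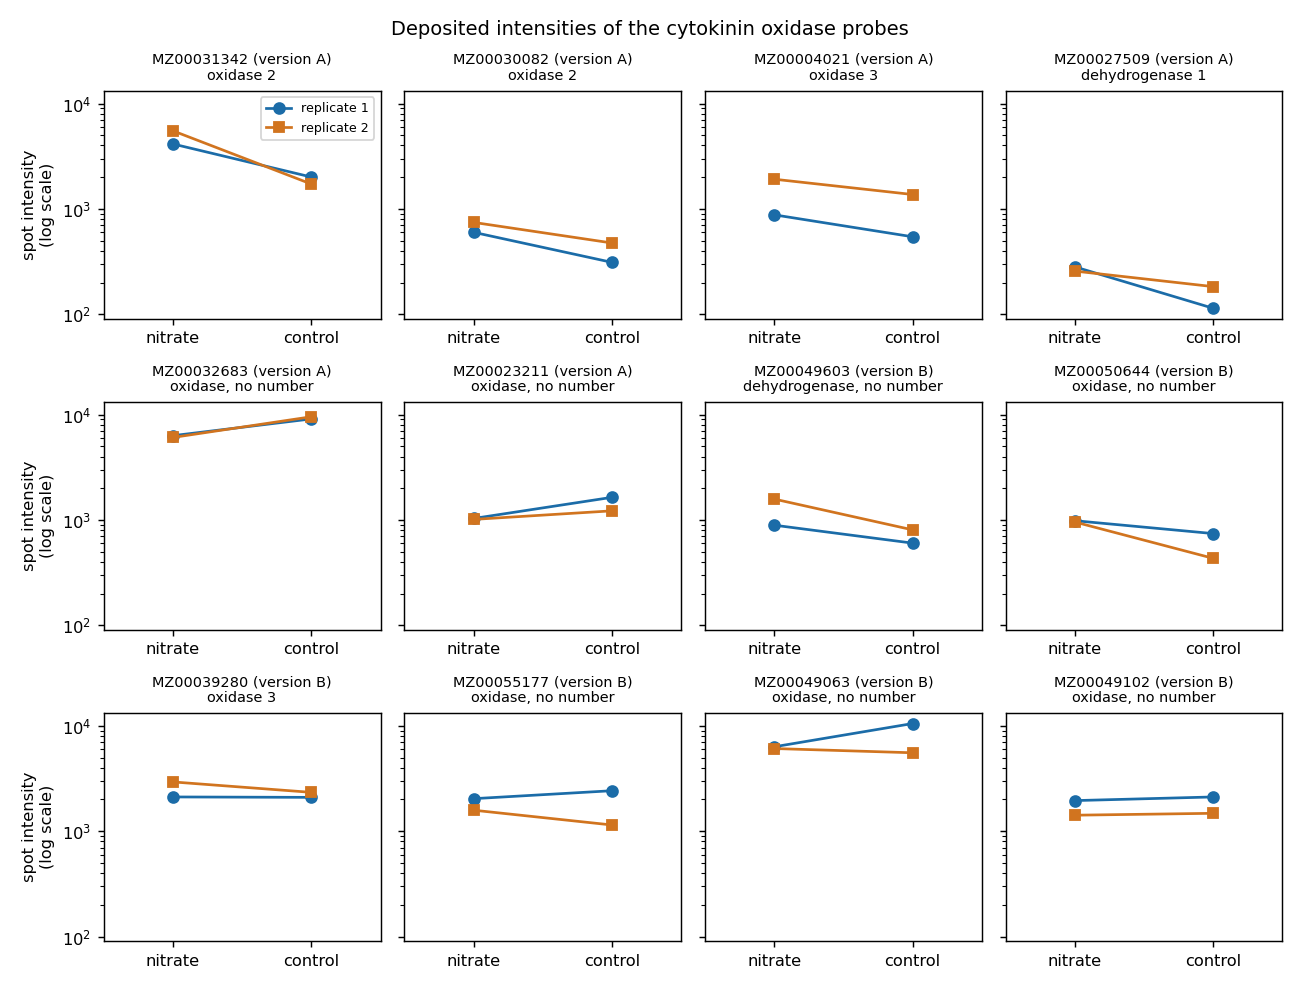
Deposited spot intensity (log axis) of each of the 12 cytokinin oxidase probes in the nitrate channel (left) and the control channel (right), with a line for each of the 2 replicate arrays. The lines of MZ00031342 fall towards control on both arrays. So do those of MZ00030082, MZ00004021, MZ00027509, MZ00049603, MZ00050644 and, by little, MZ00039280. Those of MZ00032683, MZ00023211 and, by little, MZ00049102 climb towards control on both.

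Cytokinin oxidase 2 was represented by a pair of probes on version A, which share the top protein hit, a maize sequence of that name (RefSeq gene LOC542507, synonym cko2). MZ00031342 had intensities of 4135 and 5509 in nitrate-treated roots, against 2007 and 1722 in control roots. The nitrate channel was brighter on both arrays, and the intensities of the channels did not overlap. Here and below, overlap of channels is judged on raw intensities, 2 against 2, and its share over all probes was not counted. It disregards the pairing within arrays and the imbalance of channels. On replicate 2 of version B, for example, the channel medians were 1939 for nitrate and 1438 for control. It is therefore description and not a test. After normalization the log2 ratios were 1.14 on replicate 1 and 1.56 on replicate 2, with a mean of 1.35 ± 0.30 (SD, n = 2) and a limma 95% interval of 0.79 to 1.91. The probe was the only oxidase probe at least 2-fold higher on both arrays, which 0.592% of all probes on version A were. It ranked 165 of 28374 tested probes of version A from the top. Its limma adjusted p over all probes of version A was 0.197, so it did not pass the test. The authors' deposited ratios for this probe were 2.19 and 3.04.

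The other cytokinin oxidase 2 probe, MZ00030082, had 600 and 745 in nitrate-treated roots, against 311 and 475 in control roots, again with no overlap. The log2 ratios of 0.61 and 0.27 gave a mean of 0.44 ± 0.24 (SD, n = 2), with a limma 95% interval of -0.11 to 0.99 and a limma adjusted p of 0.478. Both probes thus had ratios above 0 on both arrays, but the ranges of their log2 ratios did not overlap, and the mean log2 ratio of MZ00031342 was larger by 0.91. The files list 3 rice gene models for MZ00031342 and none for MZ00030082. Whether both probes detect the same transcript was not tested.

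Cytokinin oxidase 3 (RefSeq gene LOC542056, synonym cko3) had a probe on each version, and the files name the source sequence of each as a match of the other. The top protein hits of these probes differ, and whether both detect the same transcript was not tested. On version A, MZ00004021 had 879 and 1914 in nitrate-treated roots, against 544 and 1370 in control roots. Within each array the nitrate channel was the brighter, though the arrays differed more from each other than the channels did. Normalized, this was 0.53 and 0.29 in log2 ratio, with a mean of 0.41 ± 0.17 (SD, n = 2), a limma 95% interval of -0.13 to 0.95 and a limma adjusted p of 0.496. On version B, MZ00039280 had 2113 and 2934 in nitrate-treated roots, against 2094 and 2336 in control roots. The channels were nearly equal on replicate 1 of that version. Its log2 ratios of 0.15 and 0.03 gave a mean of 0.09 ± 0.08 (limma adjusted p = 0.904). The values of the versions come from separate arrays that were normalized separately, and no difference between them was tested.

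Cytokinin dehydrogenase 1 (MZ00027509; RefSeq gene LOC542585, synonyms cko1 and ckx1), the founding member of the family, had a probe on version A. Its intensities were 282 and 257 in nitrate-treated roots, against 114 and 183 in control roots. The raw channels did not overlap, nitrate being the brighter, but after background correction and loess the log2 ratios were 0.53 and -0.08. Loess is meant to remove an intensity-dependent imbalance of the dyes. The mean was 0.22 ± 0.43 (SD, n = 2), with the largest spread of the 12 probes and a limma adjusted p of 0.736. With median centring, which would leave such an imbalance in place, the mean was 0.55. It was 0.58 with the authors' deposited ratios and 0.36 without further background correction, none of them called. What part the dyes have in these differences was not tested.

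Of the 7 probes without a maize enzyme number, 5 are linked to one another by a shared sequence or a shared protein hit. All 5 had mean log2 ratios below 0, with no call. The median of the means of all tested probes was 0.0038 on version A and -0.0037 on version B. Of the 5, 3 were below 0 on both arrays, against 30.4% of all tested probes. On each single array, 49.2% to 50.7% of all tested probes were above 0. The 5 may not be separate genes, and the arrays pointed opposite ways for MZ00055177 and MZ00049102. MZ00032683, described after a buckwheat cytokinin oxidase, lies on version A. It had 6323 and 6079 in nitrate-treated roots, against 9114 and 9556 in control roots. The control channel was brighter on both arrays and the channels did not overlap. The log2 ratios were -0.24 and -0.54, with a mean of -0.39 ± 0.22 (SD, n = 2), a limma 95% interval of -0.94 to 0.16 and a limma adjusted p of 0.513. The genomic sequence it matches is the source of MZ00055177 on version B, which had 2035 and 1582 in nitrate-treated roots, against 2421 and 1145 in control roots. The arrays of that probe pointed opposite ways, and its mean log2 ratio was -0.02 ± 0.09 (limma adjusted p = 0.98).

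MZ00023211, described after a putative rice cytokinin oxidase, had the lowest mean of the 12 probes. It had 1035 and 1014 in nitrate-treated roots, against 1643 and 1223 in control roots. Every nitrate value was below every control value. Replicates 1 and 2 gave log2 ratios of -0.58 and -0.46, with a mean of -0.52 ± 0.09 (SD, n = 2), a limma 95% interval of -1.05 to 0.01 and a limma adjusted p of 0.421. The genomic sequence it matches is the source of MZ00049063 on version B, with 6324 and 6087 in nitrate-treated roots, against 10510 and 5547 in control roots. That probe was dimmer with nitrate on replicate 1 alone, and its log2 ratios of -0.35 and -0.03 gave a mean of -0.19 ± 0.22 (limma adjusted p = 0.78).

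MZ00049102 on version B has the same rice protein hit as MZ00023211, MZ00049063 and MZ00055177. It had 1951 and 1418 in nitrate-treated roots, against 2113 and 1478 in control roots, so the channels differed little. Its log2 ratios were 0.03 and -0.43, with a mean of -0.20 ± 0.32 (SD, n = 2; limma adjusted p = 0.771). The direction of this probe depended on the processing: the mean was 0.11 with print-tip loess and 0.12 with the authors' deposited ratios. Under the 11 other settings that kept both arrays, it was the only oxidase probe whose sign turned. On replicate 2 alone, MZ00027509 was at -0.08 and MZ00055177 at 0.04, each opposite in sign to its mean.

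The last 2 probes, both from version B and both described after rice proteins, had log2 ratios above 0 on both arrays. MZ00049603, a putative cytokinin dehydrogenase, had 894 and 1582 in nitrate-treated roots, against 604 and 807 in control roots. The channels did not overlap, with nitrate the brighter. Its log2 ratios were 0.27 and 0.46, with a mean of 0.37 ± 0.13 (SD, n = 2), a limma 95% interval of -0.17 to 0.90 and a limma adjusted p of 0.556. MZ00050644, a putative cytokinin oxidase, had 986 and 958 in nitrate-treated roots, against 744 and 433 in control roots. Every raw nitrate value of this probe was above every raw control value. Log2 ratios of 0.21 and 0.48 gave a mean of 0.35 ± 0.19 (SD, n = 2) and a limma adjusted p of 0.585. Its rice gene models are shared with no other oxidase probe.

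**Figure D2:**
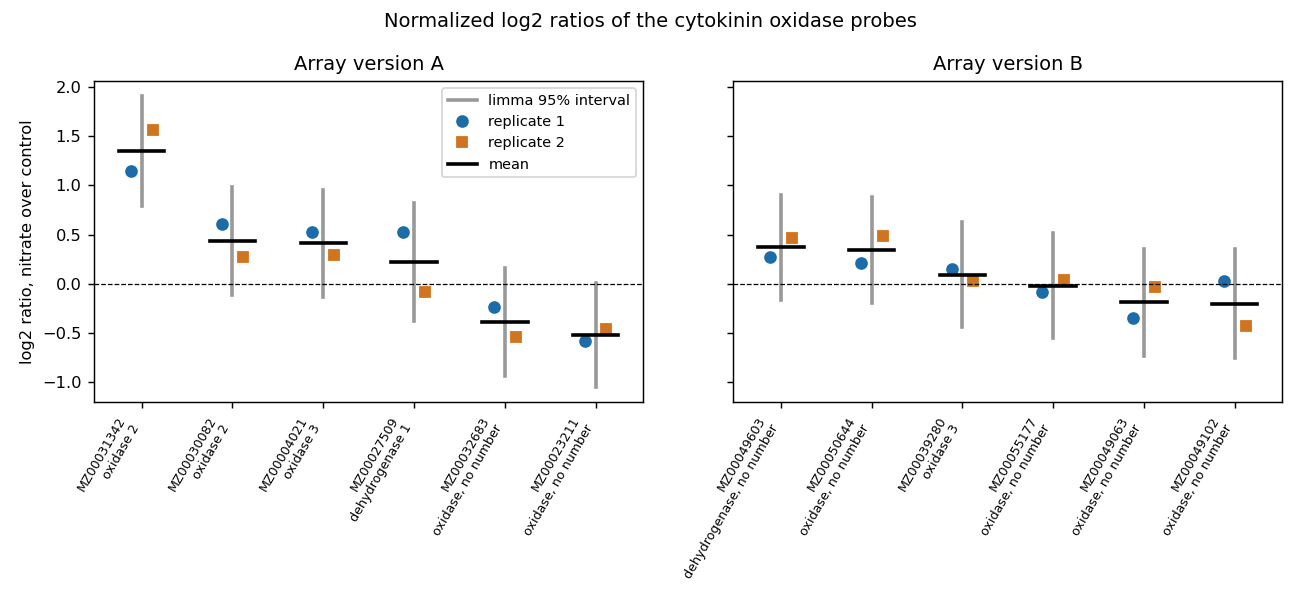
Normalized log2 ratios of nitrate over control for the 12 cytokinin oxidase probes on each array version, with a point for each replicate array, a black line for the mean and a grey bar for the limma 95% interval. MZ00031342, at 1.35, is the only probe whose interval lies off 0, and its adjusted p is 0.197.

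**Figure D3:**
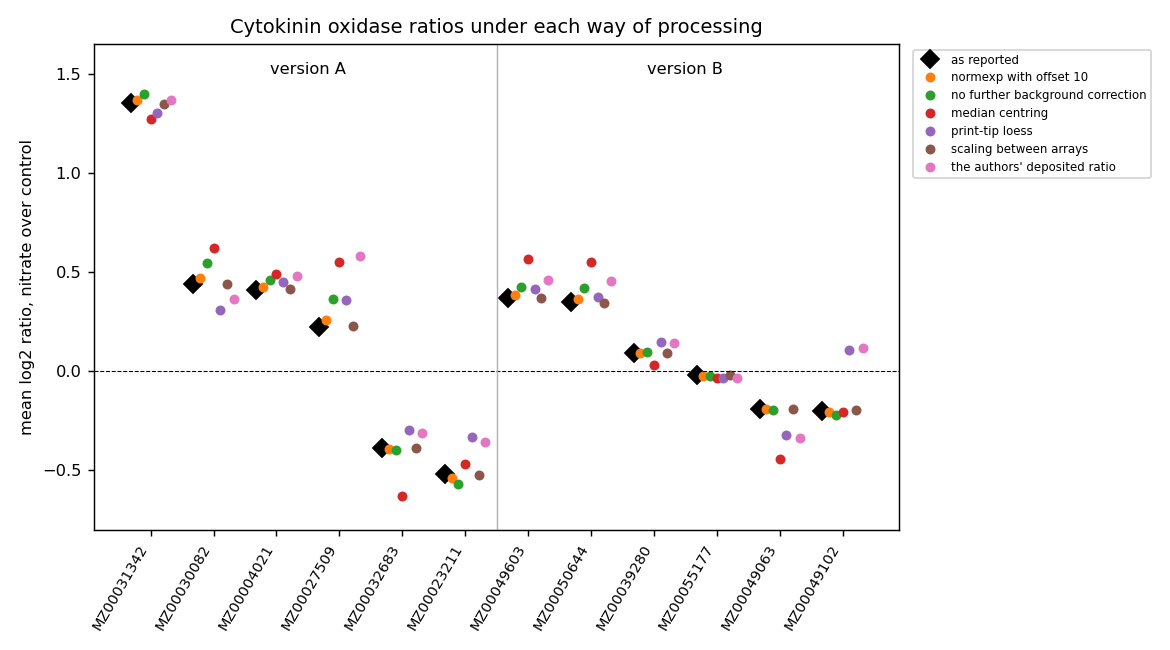
Mean log2 ratio of nitrate over control of the 12 cytokinin oxidase probes as reported (black diamonds) and under 6 other ways of correcting or normalizing the intensities (coloured points). MZ00031342 stays between 1.27 and 1.40, and MZ00049102 is the only probe with points on both sides of 0.

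On version A the order from the highest mean log2 ratio was MZ00031342, MZ00030082, MZ00004021, MZ00027509, MZ00032683 and MZ00023211. The range of MZ00031342 did not overlap that of MZ00030082, and the range of MZ00027509 did not overlap that of MZ00032683. All other neighbours on version A overlapped. On version B the order was MZ00049603, MZ00050644, MZ00039280, MZ00055177, MZ00049063 and MZ00049102, where the range of MZ00050644 did not overlap that of MZ00039280 and all other neighbours did. These are log2 ratios, and no order of transcript levels between the genes follows from them. Probes that share a rice gene model included both signs. The model listed most often is named for 8 of the 12 probes, whose means ran from -0.52 to 0.41, and the next for 6 probes, whose means ran from -0.19 to 1.35.

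**Figure D4:**
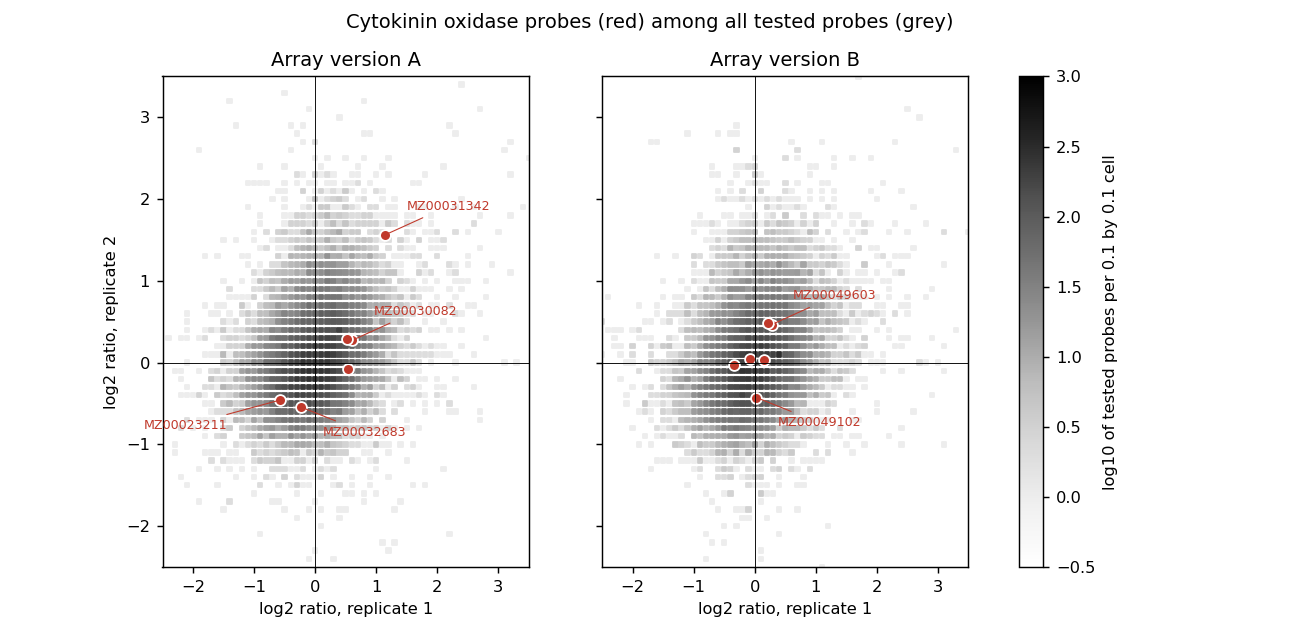
Log2 ratio of nitrate over control on replicate 1 (x axis) and replicate 2 (y axis) for all tested probes (grey, shaded by the log10 of the number of probes in a cell) and for the cytokinin oxidase probes (red), by array version. MZ00031342, at 1.14 and 1.56, lies to the upper right of the dense centre of version A, with other probes further out, and the other 11 lie within the dense centre. The axes leave out a few extreme probes.

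Across all tested probes the log2 ratios of the replicate arrays correlated at 0.289 over 28374 probes on version A and at 0.269 over 24748 probes on version B. These probes share arrays and RNA and are not independent. The central 50% of mean log2 ratios lay between -0.23 and 0.26 on version A. Both MZ00032683 and MZ00023211 lay below this range, and MZ00031342, MZ00030082 and MZ00004021 lay above it. On version B the central 50% lay between -0.23 and 0.24, with MZ00049603 and MZ00050644 above it and none of the oxidase probes below.

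The probes most like the highest and the lowest oxidase probe were found by the Euclidean distance between pairs of log2 ratios, over the 2 arrays of version A. Only probes whose description names a protein were taken, so probes without such a description may lie nearer. Nearest to MZ00031342 were a putative tyrosine aminotransferase (MZ00033360, distance 0.0344), a putative gamma-adaptin 1 (MZ00032390, distance 0.104) and a calcium/proton exchanger like CAX1 (MZ00030319, distance 0.124). Their mean log2 ratios were 1.33, 1.33 and 1.31. Nearest to MZ00023211 were a putative RNase (MZ00022269, distance 0.00947), a protein described as like a serine/threonine-specific protein kinase (MZ00027540, distance 0.0098) and the high mobility group protein HMGc2 (MZ00024042, distance 0.0142). None of these 6 passed the limma test.

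The other cytokinin genes were taken from a list of descriptions by role, which held 92 probes, all of them tested. None was called higher and none lower by limma at an adjusted p of 0.05, which 0.0207% of all tested probes of both versions passed, while 24 had a higher and 2 a lower ratio at an unadjusted limma p of 0.05, a threshold that 12.5% of all tested probes passed in either direction. Their median log2 ratio was 0.16, against 0.0038 on version A and -0.0037 on version B for all tested probes. The ratio was above 0 on both arrays for 44 of 92 and below 0 on both for 19 of 92, against 30.1% and 30.4% of all tested probes.

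Probes for hormone synthesis and conjugation, the steps that set the pool on which the oxidases act, had no call. The synthesis probes numbered 3, with a median of 0.00024. A putative cytokinin synthase (MZ00050985) had 5787 and 5306 in nitrate-treated roots, against 6818 and 3454 in control roots, and its log2 ratios averaged 0.25 ± 0.20 (SD, n = 2), with a limma adjusted p of 0.71. A probe similar to tRNA isopentenyltransferase (MZ00007744), an enzyme that modifies transfer RNA, had -0.22 ± 0.32 (limma adjusted p = 0.733). The 4 probes for cis-zeatin O-glucosyltransferases, which store the hormone as glucosides, had a median of -0.18, from MZ00051786 at -0.32 ± 0.05 to MZ00050809 at 0.02 ± 0.32 (limma adjusted p of 0.608 and 0.981).

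Probes taken as receptors had the highest median of all roles. These were 20 histidine kinase probes with a median of 0.50, of which 13 had ratios above 0 on both arrays. Histidine kinases include the cytokinin receptors, but the pattern may also take kinases of other pathways. The highest was a putative histidine kinase (MZ00000020) with 2333 and 8322 in nitrate-treated roots, against 585 and 2206 in control roots. Within each array its nitrate channel was the brighter, and the log2 ratios were 1.82 and 1.87, with a mean of 1.84 ± 0.04 (SD, n = 2; limma adjusted p = 0.141). The lowest was a histidine kinase 2 probe (MZ00000184) at -0.40 ± 0.41 (limma adjusted p = 0.53). Another putative histidine kinase on version B (MZ00035921), chosen after its values were seen, had 1.40 and, of the settings run, was called with a trended robust prior alone (limma adjusted p = 0.0328). That probe and the others highest in the list, MZ00000020, MZ00036331, MZ00001704 and MZ00000010, share a top protein hit and may share a gene. MZ00035957, at 0.05, has the same hit. Probes described as histidine kinase 1, 2 or 3 had means from -0.40 to 0.73. In the middle of their order lay MZ00035892 at 0.18 and MZ00011767 at 0.16, against the oxidase median of 0.16.

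Downstream of the receptors, phosphotransfer proteins carry the phosphate to response regulators, some of which are themselves transcribed in response to cytokinin. The 7 phosphotransfer probes had a median of -0.18 and the lowest, a phosphotransfer protein (MZ00018580), had -0.52 ± 0.34 (SD, n = 2; limma adjusted p = 0.442). The pattern also took 3 probes of other proteins, among them the highest, a chalcone synthase (MZ00040585) at -0.05, and the 4 left without them had a median of -0.19. The 42 response regulator probes had a median of 0.29, from a pseudo-response regulator described after Arabidopsis APRR1, a protein of the circadian clock (MZ00009579), at -0.83 ± 0.09 to response regulator 6 (MZ00016242) at 1.21 ± 0.46 (limma adjusted p of 0.312 and 0.15). Without 10 probes described as pseudo-response or phosphate starvation regulators, the median was 0.37 over 32 probes. Many of these probes share a name and may share a gene.

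For transport and salvage of the hormone and its adenine products, 16 probes had a median of 0.0018. The highest was a putative equilibrative nucleoside transporter (MZ00002513), a carrier of nucleosides, at 0.84 ± 0.31 (SD, n = 2; limma adjusted p = 0.315), and the lowest was an adenosine kinase (MZ00013816), which phosphorylates adenosine, at -0.53 ± 0.34 (limma adjusted p = 0.435). Neither passed the test.

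**Figure D5:**
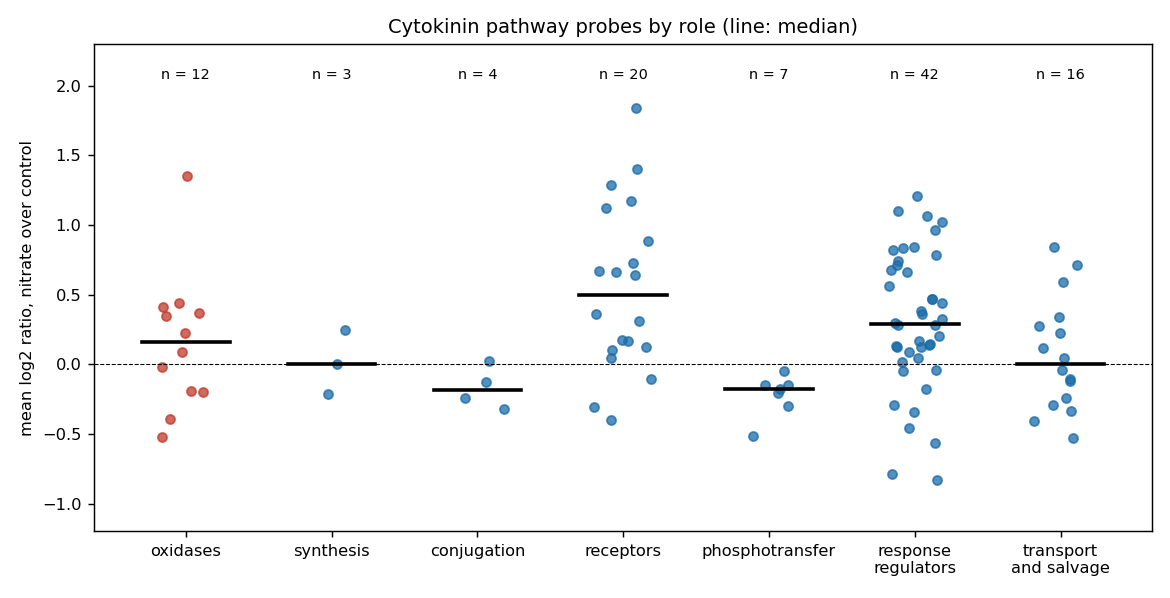
Mean log2 ratio of nitrate over control for each tested probe of the cytokinin pathway by role, with the 12 oxidase probes in red, the other roles in blue and a black line for the median of each role. The medians of receptors (0.50) and response regulators (0.29) lie above that of the oxidases (0.16), and no point of any role passed the limma test. The receptors include histidine kinases described without a number, among them the highest points of that role.

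All arrays had nitrate-treated roots in Cy3 and control roots in Cy5, so a dye effect of a probe and the effect of nitrate cannot be told apart. The series text gives 2 biological replicates for each treatment. The labels do not say whether the arrays of a version rest on separate plants for both channels, so the limma p-values measure the spread between these arrays, which may be technical.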

How the data were processed

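The deposited intensities are whole numbers per spot and dye on a linear scale, some below 0, so the authors had subtracted a background; how is not given in the sources used here. Per the file headers, the authors' deposited ratio is linear; its median of 0.996 to 1.01 shows normalization within arrays. The value tables equal it (100% of spots within 0.0001). From the intensities, limma 3.58.1 (R 4.3.3) computed log2 ratios (normexp, offset 50, global loess; control spots and 4 to 10 spots flagged B per array at weight 0). A spot was kept when at least 1 channel exceeded the 95th percentile of buffer and blank spots on both arrays: 28374 tested probes on A, 24748 on B. For each version lmFit and eBayes tested the mean against 0, with Benjamini-Hochberg adjustment over that version and a threshold of 0.05; 1 residual degree of freedom remains. The fit was also run on simulated log ratios, independent and normal, with variances drawn from the fitted prior. Such data meet the assumptions of the fit, so they cannot show how it behaves on these arrays.

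Members and lists were chosen with earlier results of these data known. Named probes are all oxidase probes, the highest and lowest of each pathway role and the 3 nearest patterns among probes whose description names a protein. RefSeq names (Zm-B73-REFERENCE-NAM-5.0) were matched through synonyms for 5 of 12 probes, leading to 3 genes; the files name no build, so no coordinates are given. Alternatives changed the offset, the background, the normalization, the filter, the prior, the stacking of versions, the ratio and the replicates.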

Additional observations from a re-analysis of the deposited data

How the results depend on the processing

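No oxidase probe was called under any of 11 other settings, and 130 of 132 values kept their sign. The exception was MZ00049102, at 0.107 with print-tip loess and 0.117 with the deposited ratio. Settings that changed the filter, the prior or the stacking of versions left each mean unchanged, so no sign could turn there. A single array turned the sign of MZ00049102, MZ00027509 and MZ00055177. MZ00031342 ranged from 1.27 to 1.40, with limma adjusted p from 0.141 to 0.411, and each array alone gave 1.14 or 1.56. The widest shift of an oxidase probe was 0.36, for MZ00027509 with the deposited ratio. The count of all called probes moved most. On version A, 0 as reported, it was 8 with print-tip loess, 4 with a trended robust prior and 4 with both versions in 1 fit. On version B, 11 as reported, it was 0 with an offset of 10, with no further background correction, with a prior fitted by maximum likelihood and with the deposited ratio. It was 19 with median centring, 3 with print-tip loess, 4 with scaling between arrays, 23 when both channels had to exceed blank spots, 71 with a trended robust prior and 3 with both versions in 1 fit. Among the other cytokinin pathway probes 1 was called with the trended robust prior and 0 otherwise. The cause was not tested. Leaving out an array leaves no residual degree of freedom and gives a value with no test. No paired analysis was possible because no result compares the versions, which are the groups that share replicate numbers; the ratio within each array already pairs its nitrate and control channels.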
